A study of Rattus norvegicus with 12 samples.

Results

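Akr1b7 encodes an aldo-keto reductase that, in mice, is switched on in liver and intestine by nuclear receptors of foreign compounds and bile acids. It is described here together with genes of the xenobiotic response: Cyp3a9, Cyp2b1, Por, Slco1a4, Ugt2b1, Abcc2, Abcc3, and the receptors Nr1i2 (PXR) and Nr1i3 (CAR). The genes were taken by symbol, and every probe set that the array annotation assigns to 1 gene was kept. This gave 11 probe sets for 9 of the 10 genes, out of 20826 named probe sets for 14217 genes. Cyp2b1, the classical phenobarbital-inducible P450, has no value because its probe set also lists its close copy Cyp2b2.

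Liver RNA of male Wistar rats, 5 weeks old, was measured on 12 Affymetrix arrays, 1 rat per array. In 6 rats the purified AIN93G diet contained 20% maple syrup, and in 6 it contained 20% of a sugar mix syrup made to match the sugars of maple syrup. The labels give 7 rats fed maple syrup and 8 fed the sugar mix; the other rats were not analysed here. All rats had free access to the basal diet for 4 days, then 11 days on their syrup diet and a fast of 16 hours before the liver was taken. No rat without syrup and no rat treated with a known receptor activator is among the arrays. Bulk liver was used, so fewer cells of a type and less RNA per cell cannot be told apart.

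PXR and CAR bind drugs, steroids and bile acids, or respond to signals set off by them, and act on DNA as partners of the retinoid X receptor. Their targets in hepatocytes cover oxidation by cytochrome P450, conjugation with glucuronic acid, sulphate or glutathione, and transport into and out of the cell. In rats several of these enzymes also differ between the sexes, under the control of the growth hormone pattern.

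The values are the authors' processed scores. Their levels resemble log2 intensities, but for most probe sets the differences between rats are far too small for that scale: the median SD of a named probe set over the 12 livers was 7.65e-06. A difference in score is therefore not a log2 ratio, and no fold is given. Sizes are stated as Hedges' g, the maple syrup mean minus the sugar mix mean in units of the SD between rats. The array medians spanned 0.000132. The SDs of Nr1i2 (0.000106) and Abcc2 (0.000141) were close to that span, and those of the other member probe sets were larger. The genes were selected on measured values of these same 12 livers, with their level, spread, covariation and diet difference known. Spread and correlation therefore carry no test here, and the limma rows of the members are not independent of that choice.

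Akr1b7 had the widest spread of all named probe sets. Its score over the 12 livers had an SD of 0.976 and a range of 2.9. It was ranked 1 by SD, by median absolute deviation and by range, and also with any 1 liver left out. The next named probe set in this order, for the odorant-binding protein gene Obp3, had an SD of 0.516. Rup2, Obp3 again and Hamp, the gene of the iron hormone hepcidin, followed with SDs of 0.216, 0.181 and 0.158. Because the score may be compressed to different degrees in different probe sets, this order describes the deposited values.

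In the maple syrup livers Akr1b7 had a lowest score of 7.099, a median of 7.675 and a highest score of 9.528, against 8.477, 9.025 and 10.003 in the sugar mix livers. Replicates 3 and 1 of maple syrup, at 9.528 and 9.225, lay within the range of the sugar mix livers. The other 4 maple syrup livers, at 7.099 to 7.990, lay below every sugar mix liver. The mean was 8.069 ± 1.06 with maple syrup and 9.123 ± 0.545 with the sugar mix (SD, n = 6 each). A maple syrup rat was higher in 9 of the 36 pairs made of 1 rat of each diet. Hedges' g was -1.15, with a 95% interval of -2.29 to 0.03. In limma, fitted over all named probe sets, the adjusted p was 0.9998 and the unadjusted p 0.048. An exact permutation test of the mean difference gave an unadjusted two-sided p of 0.0584, so passing 0.05 without adjustment depended on the test. The lower mean with maple syrup was not called.

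**Figure D1:**
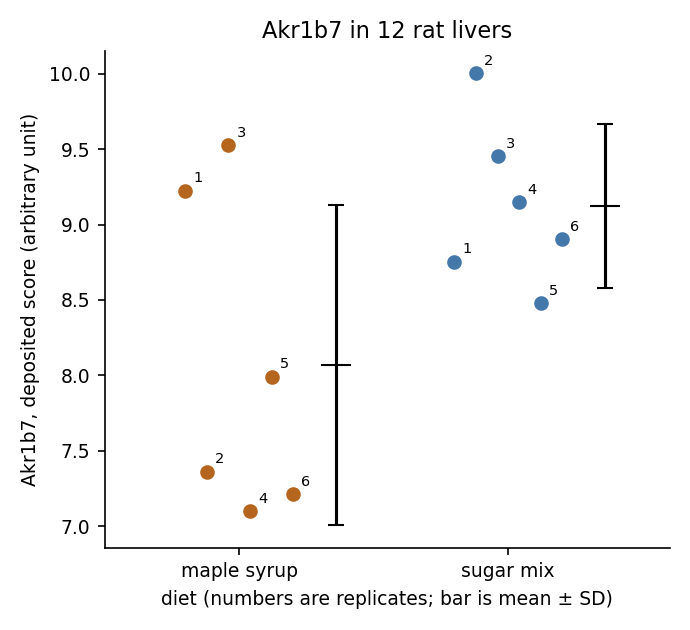
Deposited score of Akr1b7 in each liver (vertical axis, arbitrary unit) by diet; numbers are replicates and bars are mean ± SD of 6 rats. Maple syrup replicates 1 and 3 lie among the sugar mix livers, and the other 4 lie below all of them.

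The stretch before the Akr1b7 gene is printed because this gene carries the widest spread. In the RefSeq window of the rat build GRCr8, at chr4:64043720-64043900 on the plus strand, 181 bases read as follows. They end where the RefSeq gene table starts the gene (64043901), which is 69 bases before the start from which the window is counted (64043970). The hexamer AGTTCA is in capitals; it is a unit from which PXR response elements are built.
Akr1b7: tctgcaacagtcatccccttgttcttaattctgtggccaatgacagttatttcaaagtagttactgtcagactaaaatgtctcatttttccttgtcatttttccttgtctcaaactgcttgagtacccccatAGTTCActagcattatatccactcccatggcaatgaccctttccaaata

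RefSeq windows, from 250 bases before to 50 after a gene's start, were found for 9 of the 10 genes; Abcc3 had none. The hexamer AGTTCA, read on both strands, was in the windows of 5 genes (Akr1b7, Cyp3a9, Ugt2b1, Abcc2 and Nr1i2), and 14.5% of all 33469 windows hold it. The hexamer AGGTCA, also read on both strands, was in those of 3 genes (Akr1b7, where it lies past the stretch printed above, Por and Abcc2), and 16.2% of all windows hold it. Some of the paired hexamers that PXR and CAR are known to bind were also sought on both strands, with either hexamer in each place: direct repeats spaced by 3 bases (in 0.0418% of all windows), direct repeats spaced by 4 (0.0179%), and everted repeats spaced by 6 (0.00598%) or by 8 (0.0149%). The everted repeat spaced by 8 was in the window of 1 member, Abcc2, and was added to the search after that sequence had been seen. The other pairs were in 0 of the 9 windows, and these windows leave out distant enhancers. The windows that hold AGTTCA outside Akr1b7 are shown in part, with the hexamer or its complement in capitals (both hexamers of the everted repeat in Abcc2), for a gene of oxidation, of conjugation, of export and of the receptor itself.
Cyp3a9, chr12:21960216-21960245, minus strand: ccattggctacaAGTTCAgccccacctcct
Ugt2b1, chr14:21378823-21378852, plus strand: ttcttgggtgacTGAACTttcataaaaaac
Abcc2, chr1:252613679-252613708, plus strand: ctctgTGAACTcttaaccaAGTTCAaactg
Nr1i2, chr11:75965569-75965598, plus strand: ctggtcattgctAGTTCAggtgctggactt

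The other members varied less in score than Akr1b7. Cyp3a9 ranked 34 by SD, the probe sets of Por 120 and 187, Ugt2b1 124 and the probe sets of Slco1a4 212 and 214. Nr1i3 ranked 443, Abcc3 600, Abcc2 1365 and Nr1i2 1637. The median rank of the 11 member probe sets was 212 of 20826.

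With limma and Benjamini-Hochberg adjustment over all named probe sets, 0 of the 11 member probe sets passed an adjusted p of 0.05, and 0 of all 20826 did (0% called). The smallest adjusted p over all of them was 0.627. At an unadjusted p of 0.05, 2 of the 11 member probe sets were counted, Akr1b7 and Abcc3, both lower with maple syrup, and 0 higher. Over all named probe sets 4.19% were counted, 2.11% lower and 2.08% higher. Since the diet values were known when the genes were selected, nothing is read from this count. The sign of g was below 0 for 7 member probe sets and above 0 for 4, with a median of -0.33, against -0.02 over all named probe sets.

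Of the receptors, Nr1i2 (PXR) had a lowest score of 10.67971, a median of 10.67976 and a highest score of 10.67995 with maple syrup, against 10.67969, 10.67985 and 10.67998 with the sugar mix. The groups overlapped over nearly their whole range. Its g was -0.46 (95% interval -1.51 to 0.61). Nr1i3 (CAR) ran over 10.16792, 10.16976 and 10.17047 with maple syrup and over 10.16859, 10.16908 and 10.17032 with the sugar mix, again as lowest, median and highest. Here the maple syrup livers held both the lowest and the highest score. Its g was 0.27 (95% interval -0.79 to 1.31), and its sign turned under quantile normalization.

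Of the oxidation genes, Cyp3a9, a P450 that oxidises drugs and steroids, ran over 7.198, 7.242 and 7.280 with maple syrup and over 7.201, 7.229 and 7.284 with the sugar mix (lowest, median, highest). The diets overlapped throughout, with g = 0.35 (95% interval -0.72 to 1.39). Por, the reductase that passes electrons from NADPH to every microsomal P450, has 2 probe sets. The first ran over 10.5431, 10.5457 and 10.5517 with maple syrup and over 10.5348, 10.5508 and 10.5563 with the sugar mix. Sugar mix replicate 6 was the lowest liver and sugar mix replicate 1 the highest, so the sugar mix range enclosed the maple syrup range. The g of Por was -0.33 (95% interval -1.37 to 0.73) by the first probe set and -0.28 (95% interval -1.33 to 0.78) by the second.

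Of the conjugation and transport genes, Ugt2b1 makes a UDP-glucuronosyltransferase. Its lowest, median and highest scores were 10.0129, 10.0266 and 10.0309 with maple syrup, against 10.0255, 10.0295 and 10.0350 with the sugar mix. Maple syrup replicate 5 was far below the rest; replicates 3 and 4 of maple syrup were also under every sugar mix liver, and the remaining livers overlapped. The g was -0.71 (95% interval -1.79 to 0.39). The moderated t was -1.38, and -0.84 without that replicate. Slco1a4 encodes an uptake transporter of the blood-facing hepatocyte membrane. Its first probe set ran over 10.9101, 10.9126 and 10.9143 with maple syrup and over 10.9060, 10.9103 and 10.9142 with the sugar mix. The lowest 3 livers were sugar mix replicates 1, 2 and 3, while the highest were of both diets. Its g was 0.69 (95% interval -0.41 to 1.76) by the first probe set and 0.61 (95% interval -0.49 to 1.67) by the second.

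Abcc2 (Mrp2) exports conjugates into bile and Abcc3 (Mrp3) exports them back to blood. Abcc2 ran over 10.69280, 10.69292 and 10.69318 with maple syrup and over 10.69277, 10.69306 and 10.69321 with the sugar mix. The diets overlapped throughout, with g = -0.38 (95% interval -1.43 to 0.68). Abcc3 ran over 7.63432, 7.63496 and 7.63551 with maple syrup and over 7.63504, 7.63552 and 7.63597 with the sugar mix. The lowest 3 livers were maple syrup replicates 5, 4 and 6, and the highest 3 were of the sugar mix. Abcc3 had the largest g of the members in size, -1.26 (95% interval -2.41 to -0.06), and a maple syrup rat was higher in 7 of 36 pairs. Its limma adjusted p was 0.9998 and its unadjusted p 0.0335, so it was not called either.

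**Figure D2:**
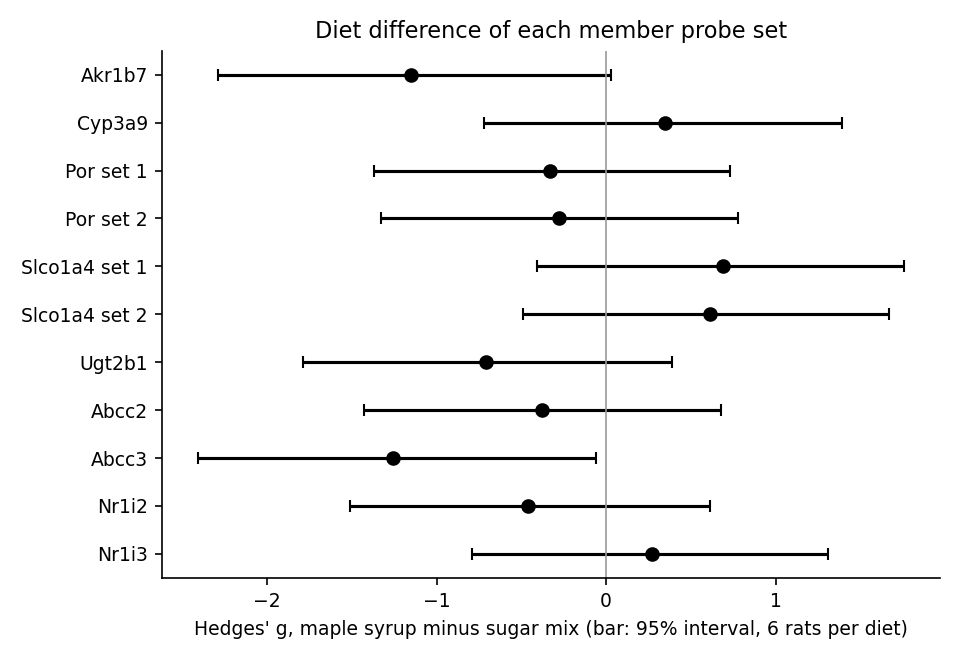
Hedges' g of each member probe set (horizontal axis, maple syrup minus sugar mix, in SDs between rats) with its 95% interval from 6 rats per diet. The interval of Abcc3 alone leaves out 0, with no allowance for the number of probe sets, and that of Akr1b7 ends at 0.03.

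Where a member had a pair of probe sets, they ranked the livers alike. Those of Slco1a4 correlated at Spearman's rho of 0.97 and Pearson's r of 0.99 over the 12 livers, and those of Por at rho of 0.87 and r of 0.94. Leaving out the 2 livers farthest from the median of the first probe set gave r of 0.98 for Slco1a4 and 0.94 for Por. The SDs of the Slco1a4 probe sets, 0.00252 and 0.00251, were nearly equal, while those of Por were 0.0058 and 0.00304.

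Between different genes the members did not move as a block. Over the 53 pairs of probe sets of different genes the median rho was -0.03. In 4 pairs rho was at least 0.6 and in 7 it was -0.6 or below. Of all named probe sets, 3.37% (for Abcc3) to 9.81% (for the first Por probe set) had a rho of 0.6 or more in size with a given member. Por and Slco1a4 enter with both probe sets, so their relations with each other and with Nr1i2 are counted more than once. The members were chosen with their covariation known, and nothing is read from this count. All these correlations share the same 12 arrays.

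The strongest relation by rho of the deposited scores was an opposite one, between Por and Slco1a4. Their first probe sets had rho = -0.90 and r = -0.85, and r was -0.85 without the 2 livers farthest from the median of Por. The livers at the ends changed places: sugar mix replicate 6 was lowest in Por and among the 3 highest in Slco1a4, and sugar mix replicate 1 was highest in Por and lowest in Slco1a4. The relation was rho = -0.60 within the maple syrup livers and -0.94 within the sugar mix livers (n = 6 each). The other combinations of their probe sets gave rho from -0.87 to -0.80. Of all named probe sets, 0.163% had a rho with the first Por probe set at least this large in size.

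Nr1i2 went with Por and against Slco1a4. With Por its rho was 0.73 (r = 0.70) by the first probe set and 0.88 (r = 0.86) by the second. After median centring Nr1i2 had rho = 0.94 with the second Por probe set, against -0.90 for the first probe sets of Por and Slco1a4. With Slco1a4 its rho was -0.76 (r = -0.66) and -0.73 (r = -0.60). Without the 2 livers farthest from the median of the Por or Slco1a4 probe set, r was 0.72 and 0.83 with Por and -0.78 and -0.84 with Slco1a4. Ugt2b1 and Abcc3 ran alike over the livers, with rho = 0.77 and r = 0.77; without the 2 livers farthest from the Ugt2b1 median r was 0.46. Abcc2 and Nr1i3 ran opposite, with rho = -0.69 and r = -0.63, and r was -0.75 without the 2 livers farthest from the Abcc2 median; rho was -0.94 within maple syrup and -0.20 within the sugar mix.

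The array's control probe sets for the housekeeping transcripts GAPDH and beta-actin moved with Por, Slco1a4, Nr1i2 and Ugt2b1, while those for hexokinase did so far less. The 3' probe set of GAPDH had rho = 0.74 with the first Por probe set, -0.87 with the first Slco1a4 probe set, 0.63 with Nr1i2 and 0.56 with Ugt2b1. Its 5' probe set gave 0.64, -0.78, 0.67 and 0.67 in the same order. For beta-actin the 3' probe set gave 0.65, -0.63, 0.46 and 0.71, and the 5' probe set 0.60, -0.69, 0.66 and 0.80. For hexokinase the 3' probe set gave -0.11, 0.13, -0.33 and -0.17, and the 5' probe set -0.09, -0.17, 0.29 and 0.12. The array medians had rho between -0.24 and 0.01 with these 4 probe sets. Such relations were not limited to them. The 3' and 5' probe sets of beta-actin had rho of 0.67 and 0.58 with Abcc3 and of -0.64 and -0.47 with Cyp3a9. The 5' probe set of hexokinase had -0.63 with Abcc2 and 0.69 with Nr1i3, and its 3' probe set -0.27 and 0.07. The part of overall RNA or array differences in the relations between members, those of Ugt2b1 with Abcc3 and of Abcc2 with Nr1i3 included, was not tested.

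**Figure D3:**
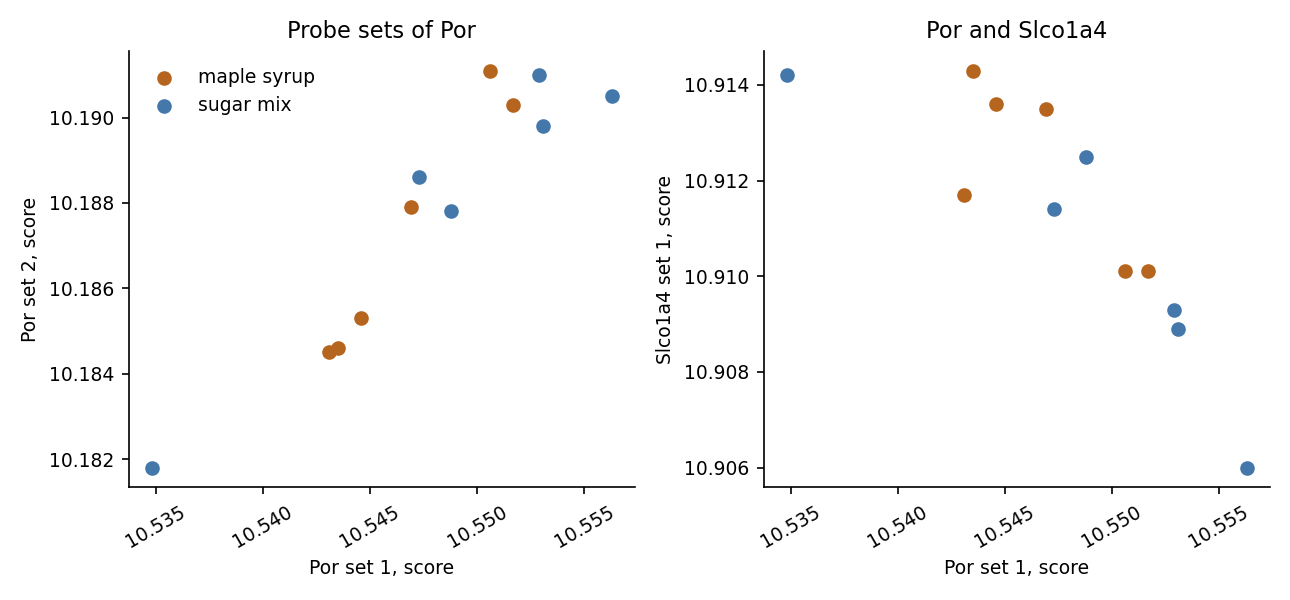
Scores of the second Por probe set (left) and the first Slco1a4 probe set (right) against the first Por probe set, 1 point per liver, coloured by diet. The Por probe sets rise together (rho = 0.87), and Slco1a4 falls as Por rises (rho = -0.90).

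Akr1b7 stood apart from most of the other members. Its rho was 0.62 with Abcc3 (r = 0.65) and 0.53 with Abcc2 (r = 0.53). Without the 2 livers farthest from its median, maple syrup replicates 4 and 6, rho was 0.39 and 0.42 and r was 0.48 and 0.47. With the receptors rho was 0.10 for Nr1i2 (r = 0.13) and -0.42 for Nr1i3 (r = -0.44). With Cyp3a9, the Por probe sets, the Slco1a4 probe sets and Ugt2b1 rho lay between -0.18 and 0.38. That of Cyp3a9, -0.04 over all livers, was -0.20 within maple syrup and 0.83 within the sugar mix (n = 6 each); this difference between the diets was not tested. Over all named probe sets the central 90 percent of rho values with Akr1b7 lay between -0.55 and 0.55, so Abcc3 alone among the members lay outside, and 3.17% of named probe sets had a rho as high. With the diet means removed the order of the transporters turned: rho was 0.36 for Abcc3 (0.43 within maple syrup and 0.37 within the sugar mix) and 0.63 for Abcc2 (0.60 and 0.71). Akr1b7 and Abcc3 are also the members with the largest g in size. The GAPDH and beta-actin controls had rho between 0.17 and 0.40 with Akr1b7, and the 5' and 3' probe sets of hexokinase had -0.73 and -0.64; their part in the values of Akr1b7 was not tested.

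**Figure D4:**
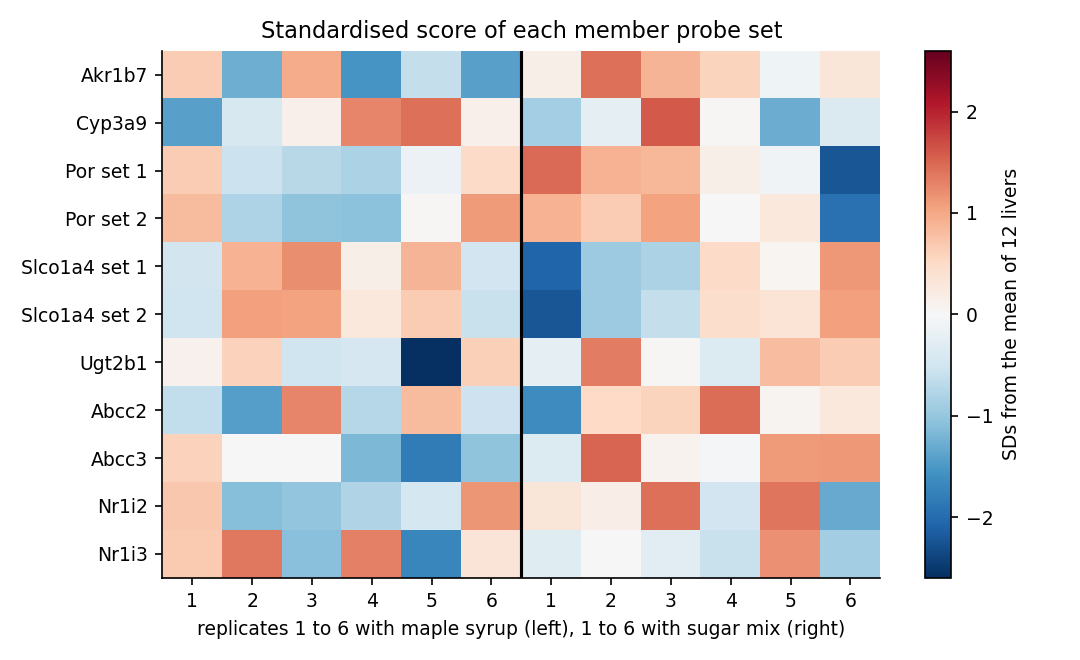
Standardised score of each member probe set (rows) in the livers (columns, replicates 1 to 6 of maple syrup left of the line and of the sugar mix right of it); colour gives SDs from the mean of 12 livers. The rows of Por and Nr1i2 resemble each other and mirror those of Slco1a4, while the row of Akr1b7 differs from these (rho from -0.18 to 0.38).

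The genes whose order over the livers was most like that of Akr1b7 were sought among 20821 other probe sets with at least 9 different values. Cux2, a homeobox transcription factor found mainly in female liver in rodents, came first, with rho = 0.97 and r = 0.96, and its other probe set gave rho = 0.93 and r = 0.94. Without the 2 farthest livers r was 0.94 and 0.90. Prlr, the prolactin receptor, which is also higher in female rat liver, gave rho of 0.91, 0.90 and 0.86 by its 3 probe sets, with r of 0.90, 0.89 and 0.86. Both genes held within each diet: rho was 1.00 and 0.94 for the first probe sets of Cux2 and Prlr in maple syrup livers and 0.94 and 0.83 in sugar mix livers (n = 6 each). Tor3a, an ATPase of the endoplasmic reticulum, gave rho = 0.94 and r = 0.91 by its only probe set.

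The other genes named for the highest rho were Synpo, Limk1, Suv39h2, Plbd1, Epb41l4a, Sars2 and Trim27, with rho from 0.88 to 0.92 and r from 0.75 to 0.92. Their scores varied by less than the span of the array medians, with SDs of at most 4.73e-05. After median centring their rho was 0.22 for Limk1, 0.29 for Trim27, 0.37 for Suv39h2, 0.44 for Sars2, 0.52 for Epb41l4a, 0.55 for Plbd1 and 0.73 for Synpo. It was 0.97 and 0.92 for Cux2, 0.94 for Tor3a and 0.86 to 0.91 for Prlr. Subtracting array medians that span more than a score varies leaves values that follow the medians in large part. For the genes from Synpo to Trim27 the centred rho therefore cannot tell whether their likeness to Akr1b7 holds. Cux2, Tor3a and Prlr had SDs above that span, so centring could change their rho little. Of the further probe sets of Synpo, Plbd1 and Epb41l4a, the rho with Akr1b7 lay between -0.44 and 0.37.

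The lowest rho was -0.97, for Kiaa0040 (r = -0.95), whose other probe set gave -0.71 (r = -0.75). Trim2, a ubiquitin ligase, gave -0.94, -0.92 and -0.59 by its 3 probe sets, with r of -0.89, -0.87 and -0.58. Manea, a mannosidase of the Golgi, gave -0.92 and -0.77, with r of -0.86 and -0.75. Tkfc, the triokinase that phosphorylates glyceraldehyde from fructose, gave -0.91 (r = -0.84) by 1 probe set and -0.41 (r = -0.33) by its other probe set. Pcmtd1 gave -0.91, -0.81, -0.72 and -0.08, with r of -0.85, -0.78, -0.72 and -0.11. After median centring rho was -0.69 and -0.76 for Kiaa0040, -0.91, -0.92 and -0.59 for Trim2 and -0.86 and -0.78 for Manea. It was -0.83 and 0.17 for Tkfc and -0.76, -0.81, -0.52 and -0.04 for Pcmtd1. The first probe sets of Kiaa0040, Manea and Pcmtd1 had SDs of 3.35e-05, 5.24e-05 and 7.08e-05, below the span of the array medians. For probe sets this narrow the centred rho follows the medians in part, so it decides nothing about them. In all, 69 probe sets had a rho of at least 0.8 with Akr1b7 and 58 had -0.8 or below, together 0.61% of those searched. The first Por probe set had 278 such partners and Cyp3a9 35. None of these genes passed the diet test.

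Of the other known targets of PXR and CAR, 51 were measured, taking the brightest probe set of each. With limma 0 rose and 0 fell after adjustment over all named probe sets (0% called). At an unadjusted p of 0.05, 1 was lower and 0 higher, where 2.21% of genes were lower and 2.03% higher. The median g of the list was 0.14, against -0.04 over all named genes. The lower gene was Gsta1, a glutathione S-transferase, with g = -1.37 (95% interval -2.54 to -0.14). It averaged 13.4935292 ± 5.15e-06 with maple syrup and 13.4935380 ± 6.72e-06 with the sugar mix (SD, n = 6 each), with SDs far below the span of the array medians. The next smallest p values belonged to Gstm2, also a glutathione S-transferase (g = 1.11), Ephx1, the microsomal epoxide hydrolase (g = -1.06), Aldh1a1, a retinaldehyde dehydrogenase (g = 0.99), and Cyp2c13 (g = 0.98). Their 95% intervals included 0.

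The median rho of this list with Akr1b7 was -0.03, but its ends held named P450s. In 6 of the 51 genes, or 11.8%, rho was -0.6 or below, against 3.19% of all named genes. In 3, or 5.88%, it was 0.6 or above, against 4.23% of all. The list was chosen with earlier results of these data known. Its median rank by SD was 1162, against 10708 for all named genes, so the shares compare unlike probe sets. The 6 were Cyp3a18 (rho = -0.85, r = -0.88), Cyp2c13 (rho = -0.83, r = -0.72), Cyp2a2 (rho = -0.72, r = -0.64), Gstm3 (rho = -0.70, r = -0.73), Gstm2 (rho = -0.62, r = -0.66) and Cyp3a2 (rho = -0.61, r = -0.55). Cyp3a18, Cyp2c13, Cyp2a2 and Cyp3a2 are known as P450s that are higher in male rat liver. The 3 at the other end were Cyp2c7 (rho = 0.75, r = 0.75), a P450 higher in female rat liver, Sult2a6 (rho = 0.64, r = 0.73), a sulphotransferase of bile acids and steroids, and Pdk4 (rho = 0.61, r = 0.61), a kinase that limits pyruvate oxidation. Of these 9, Cyp2a2, Gstm3, Cyp3a2, Cyp2c7, Sult2a6 and Pdk4 were named after their values had been seen. A sex bias is named here only for genes at the ends of rho. That of the members and the other listed genes was not set beside their rho. No pattern by sex is therefore read from these P450s, Cux2 or Prlr.

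Without the 2 livers farthest from the Akr1b7 median, r was -0.84 for Cyp3a18, -0.70 for Cyp2c13, -0.69 for Cyp2a2, -0.54 for Gstm3, -0.68 for Gstm2 and -0.60 for Cyp3a2. It was 0.68 for Cyp2c7, 0.47 for Sult2a6 and 0.42 for Pdk4. Within the diets Cyp3a18 had rho = -0.77 with maple syrup and -0.60 with the sugar mix, and Cyp2c7 had 0.89 and 0.94 (n = 6 each). Cyp3a2 was weaker, at -0.20 and -0.54, and Gstm3 had -0.71 and 0.09. The SDs of Cyp2c7 (2e-05) and Gstm3 (2.9e-05) were below the span of the array medians, and after median centring their rho was 0.55 and -0.27. Scores this narrow follow the medians in large part once centred, so these values decide nothing about Cyp2c7 and Gstm3. For the other 7 of these 9 genes rho after centring lay between -0.85 and -0.57 or between 0.61 and 0.71. Tsku, Gsta3 and Sult1e1, which with Gstm2 and Cyp3a18 had the widest SDs of the list, had rho of -0.28, 0.30 and -0.53 (r = -0.33, 0.35 and -0.49).

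**Figure D5:**
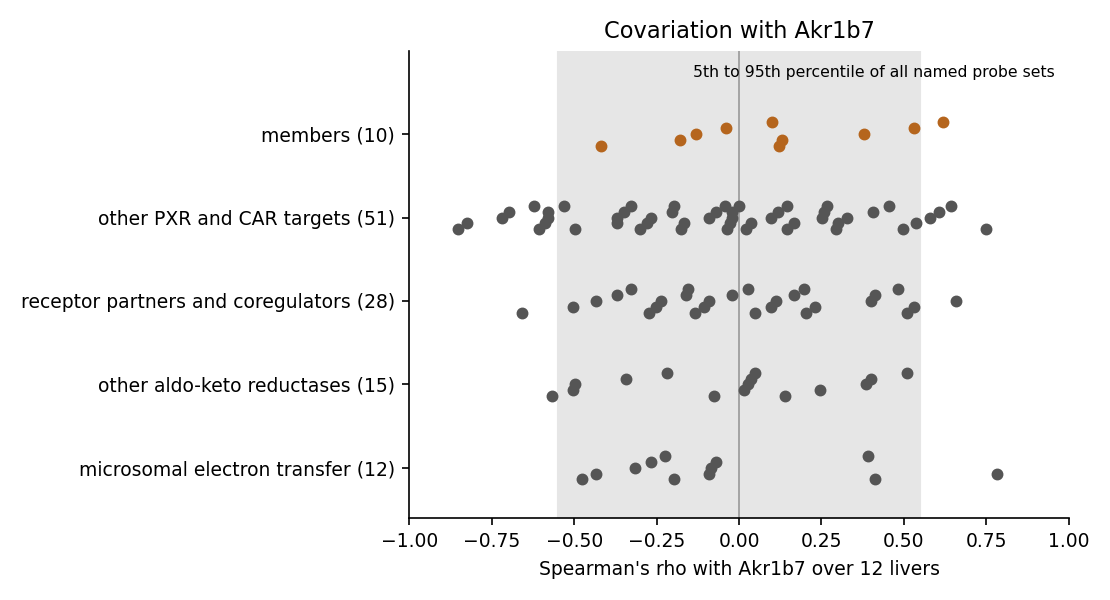
Spearman's rho with Akr1b7 over 12 livers (horizontal axis) for member probe sets and for the genes of 4 lists, 1 point each with the number in brackets; the grey band spans the 5th to 95th percentile of all named probe sets, -0.55 to 0.55. Of the members Abcc3 alone lies outside the band, while other PXR and CAR targets lie beyond it at both ends.

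Genes that work with the receptors gave 28 measured members, of which 0 passed. Their median g was -0.04 and their median rho with Akr1b7 was 0.00, with a range of -0.66 to 0.66. A rho of -0.6 or below was found in 3.57% and one of 0.6 or above in 3.57%, against 3.19% and 4.23% of all named genes. The widest in spread were Foxa2, a transcription factor of hepatocytes (g = 0.15, rho = -0.09, r = -0.07), and Nr0b2, the repressor SHP (g = 0.76, rho = -0.66, r = -0.65). The highest rho was that of the retinoid X receptor gene Rxrg (rho = 0.66, r = 0.62, g = -0.07), named after its values had been seen. Its SD of 2.49e-05 was below the span of the array medians. Of 12 measured genes of microsomal electron transfer 0 passed, with a median g of 0.17; Hmox1 and Blvrb, which break down haem, had the widest spread and g of -0.06 and -0.16. Their rho with Akr1b7 lay between -0.48 and 0.78. The highest was that of Fdx1, a ferredoxin that serves P450s of mitochondria (r = 0.67, and 0.55 without the 2 farthest livers; g = -0.18), named after its values had been seen.

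Among 15 other aldo-keto reductases 0 passed, and their rho with Akr1b7 lay between -0.57 and 0.51. At an unadjusted limma p of 0.05, 1 was higher and 1 lower, where 2.03% of genes were higher and 2.21% lower. The lower gene was Akr1b10. The higher gene was Akr1c3, with g = 1.30 (95% interval 0.09 to 2.46), rho = -0.57 (r = -0.61) and a limma adjusted p of 0.9998. Akr1c3 was named after its values had been seen. Akr1c1 and Akr1d1, a steroid reductase of bile acid synthesis, had the widest spread, with g of -0.25 and 0.18. Akr1b8 and Akr1b10 lie near Akr1b7 on chromosome 4 in the GRCr8 assembly. Akr1b8 had rho = -0.08 with Akr1b7 (r = -0.10) and g = -0.56 (95% interval -1.62 to 0.52). The probe sets of Akr1b10 had rho of 0.51 and 0.43 (r = 0.55 and 0.44) and g of -1.46 (95% interval -2.65 to -0.21) and -1.47 (95% interval -2.66 to -0.22), with a limma adjusted p of 0.9998 and 0.9998. Their SDs, 3.22e-06 and 1.55e-05, were far below the span of the array medians. The probe sets of Akr1b1 had rho of 0.14 and 0.53 (r = 0.24 and 0.52) and g of -0.00 and -0.04. Their SDs, 6.74e-06 and 1.16e-05, were also below that span. Whether RNA of these close relatives binds to the Akr1b7 probe set was not tested.

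Markers of hepatocytes and of tissues that could be taken along with the liver were set beside Akr1b7. All 7 measured hepatocyte markers had levels of at least 12.3, and the widest in spread, Cps1 and Hnf4a, had rho of 0.10 and 0.41 with Akr1b7 (r = -0.06 and 0.30). For the adrenal cortex, a main site of Akr1b7 in mice, 6 markers were measured, with levels of 6.45 to 6.89 and rho from -0.10 to 0.41; Cyp11b1 and Cyp11a1 had the widest spread. For the small intestine rho lay between -0.31 and 0.52 over 7 markers, led in spread by Fabp2 and by Apoa4, which rat liver also makes. The disaccharidase gene Si was lower with maple syrup at an unadjusted p of 0.0013, with g = -2.26 (95% interval -3.66 to -0.80), a limma adjusted p of 0.9998 and rho = 0.22 with Akr1b7 (r = 0.36); it was named after its values had been seen, and its SD of 4.91e-06 was below the span of the array medians. Fabp2 had g = -0.92 and rho = 0.52 (r = 0.64). The median g of the intestinal list was -0.30, and those of the other marker lists lay between -0.26 and 0.10, against -0.04 over all named genes. The Spearman correlation with Akr1b7 lay between -0.56 and 0.41 over 5 markers of white adipose tissue (Cidec, Fabp4), between -0.31 and 0.20 over 6 of the exocrine pancreas (Cela1, Cpa1), between -0.22 and 0.48 over 5 of kidney (Umod, Kap) and between -0.15 and 0.19 over 4 of blood (Alas2, Hemgn). It lay between -0.65 and 0.20 over 4 cholangiocyte markers (Epcam, Spp1) and between -0.09 and 0.34 over 4 Kupffer cell markers (Cd163, Cd68). The lowest of these values, -0.65, was that of the cholangiocyte marker Epcam (r = -0.62). The part of other cells in the values of Akr1b7 was not tested. None of these markers passed the diet test.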

How the data were processed

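Biotinylated cRNA was prepared from 2 ug of liver RNA for Affymetrix arrays, as the labels' protocols state. The deposited score is what the authors' processing gave for 31099 probe sets in 12 livers, with 0 missing values; how it was summarized and normalized is unknown here. Groups and replicate numbers came from the sample titles, which call the samples biological replicates. After 57 controls were removed, 20826 probe sets had 1 symbol (platform annotation, updated through RefSeq); 436 had several and 9780 are unnamed here.

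Diets were compared on the deposited score with limma 3.58.1 in R 4.3.3 (lmFit and eBayes, prior variance trended on level; two-sided p values adjusted by Benjamini-Hochberg over all 20826, threshold 0.05), with no filter or further scaling. Intervals of Hedges' g came from the noncentral t distribution (scipy 1.17.1). Figures used matplotlib 3.10.9.

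The members and gene lists were chosen with earlier results of these data known. Named genes were all member probe sets; of the target list the 5 widest in SD and the 5 with the smallest p; of other lists the 2 widest; the 10 genes most and 5 least like Akr1b7 by rho; and the 5 widest probe sets. Alternatives were quantile normalization, median centring, removal of the lowest 30% of probe sets, 1 probe set per gene, other variance models, scaling by SD, a rank-sum test, array weights, a replicate block and each array left out. For Akr1b7 the mean difference was also tested by exact permutation over all 924 arrangements. With 6 arrays per diet, array number sets the precision.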

Additional observations from a re-analysis of the deposited data

Results flagged for a closer look

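Over 22 sets of 6 rats (each member probe set in each diet), 2 had a single rat well apart from the rest; chance alone marks about 1 in 20 such sets, or 1.1 here. Ugt2b1 was at 10.0129 in maple syrup replicate 5, the lowest liver. The second Por probe set was at 10.1818 in sugar mix replicate 6, also the lowest liver, and the first Por probe set was lowest there too, at 10.5348.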

How the results depend on the processing

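The count of named probe sets past the adjusted threshold was 0 under every alternative run. At an unadjusted p of 0.05 the count was 873 (434 higher, 439 lower) as reported, 193 (143 higher, 50 lower) under median centring, 920 (289 higher, 631 lower) under quantile normalization and 680 with the exact rank-sum test. The median SD of a named probe set, 7.65e-06, is far below the span of the array medians, 0.000132. Most centred scores therefore follow those medians, and the count under centring is no check of the reported one. Of 240 values of member probe sets under alternatives, 239 kept their direction and stayed uncalled; Nr1i3 had a moderated t of -0.256 under quantile normalization, against 0.518 as reported. The moderated t of Akr1b7 was -2.23 as reported, lay between -3.23 and -1.8 with each liver left out, and was -2.2 with the replicate number as a block; the block changed no call. The labels state no pairing of rats by replicate number. Correlations between same-numbered rats ran from -0.043 to 0.12, and 0 of 6 maple syrup rats correlated best with their own number. A pairing with small effects could be missed by this check. All 154 spread ranks stayed within 1.5 times, and 51 of 60 correlations with Akr1b7 stayed within 1 jackknife standard error. The number of arrays and the unknown compression of the score limit what these values can show.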
